A study of Mus musculus with 4 samples.

Results

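Mural cells wrap the outside of blood vessels: smooth muscle cells around arteries and larger veins, and pericytes along capillaries. Among single cells sorted from mouse bone as mesenchymal stroma, 61 of 21483 passing barcodes (0.284%, 95% exact Clopper-Pearson interval 0.217 to 0.365%) were taken as smooth muscle and pericyte-like mural cells. A barcode passed with at least 2000 unique molecular identifiers (UMIs, each standing for 1 captured RNA molecule), at least 500 genes and at most 10% of UMIs from mitochondrial genes. A passing barcode counted as a mural cell when Acta2, Tagln and Myh11 together made up at least 30 UMIs per 10000 UMIs (written 30 u), when it held at least 1 UMI of Myh11, Notch3 or Mcam, and when the synovial lining genes Clic5 and F13a1 together stayed under 8 u. The cells were thus chosen by the measured UMIs of Acta2, Tagln, Myh11, Notch3, Mcam, Clic5 and F13a1 in the same counts that are described here, so every comparison of mural cells with other cells is a description and none carries a test.

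The cells came from C57BL/6 mice, from crushed femora and tibiae digested with collagenase, and were sorted as CD45-TER119-CD31-CD140a+CD51+, a gate meant to leave out blood and endothelial cells and to hold stromal cells with the PDGF receptor alpha (CD140a, gene Pdgfra) and integrin alpha V (CD51, gene Itgav). There was 1 library for each of 4 groups. The NHD13Tg library came from mice with the Nup98-HoxD13 fusion transgene, a model of myelodysplastic syndrome, and its control was the WT_A1 library from WT mice. The Abcg2-MDS/AML library came from the second model, labelled only by that genotype, and its control was the library titled Control, also WT. The labels do not state the age or sex of the mice, how many went into a library, which cells carry the transgene or how the Abcg2-MDS/AML mice were made.

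In smooth muscle, actin filaments slide on smooth muscle myosin after calcium activates the myosin light chain kinase, and tropomyosin, calponin and caldesmon regulate that sliding. Pericytes are recruited to new capillaries by PDGF-B from the endothelium acting on the receptor PDGFRB, and are known for the G-protein regulator RGS5 and for a basement membrane shared with the endothelium. Both kinds of mural cell take Notch signals from endothelial cells through NOTCH3, and in marrow the vessels they cover border the niches of blood stem cells.

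The 4 libraries held 38763489 UMIs in NHD13Tg, 37368880 in WT_A1, 36133716 in Abcg2-MDS/AML and 46033790 in Control, over all barcodes. Mural cells were 8 of 5766 passing barcodes in NHD13Tg (0.139%, 0.0599 to 0.273%), 9 of 4973 in WT_A1 (0.181%, 0.0828 to 0.343%), 35 of 5586 in Abcg2-MDS/AML (0.627%, 0.437 to 0.870%) and 9 of 5158 in Control (0.174%, 0.0798 to 0.331%). With 1 library per group these shares cannot be set against genotype, and they also depend on what the sort let through. Cells of 1 library share their mice, sort and capture, so intervals here cover counting error only. Only Abcg2-MDS/AML had at least 10 mural cells, so the fold changes were computed in that library, and the other 3 libraries stand beside it as values. Between 6 and 14 passing barcodes were shared by each pair of libraries, none of them a mural cell in both, and 1 mural cell barcode of Control also passed in Abcg2-MDS/AML.

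The depth of the mural cells lay near that of the other cells, and their mitochondrial share was higher. Their median UMI count was 4500 in NHD13Tg, 5772 in WT_A1, 3907 in Abcg2-MDS/AML and 3907 in Control, against 5001, 5452, 4186 and 5059 in all other passing barcodes of those libraries, taken in the same order. The median mitochondrial share was 3.16, 3.34, 3.56 and 2.41% in the mural cells of the same libraries, against 1.96, 1.91, 1.88 and 2.07% in the others. Doublets were not removed from these values. Scrublet, a doublet caller, marked only 1, 1, 2 and 3 barcodes of the libraries with its own cut, too few for it to have worked, so it was also set to a rate of 0.8% per 1000 barcodes. At that rate it marked 4 of 35 mural cells in Abcg2-MDS/AML, where it marked 250 of 5586 passing barcodes, 1 of 9 in Control (213 of 5158) and none in the other 2 libraries. The median doublet score was 0.0773 in the mural cells of Abcg2-MDS/AML and 0.0369 in the others, and 0.0685 and 0.0380 in Control.

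The 3 contractile genes of the rule were present in nearly every mural cell. Acta2 (ENSMUSG00000035783), smooth muscle alpha actin, had a UMI in 58 of the 61, Tagln (ENSMUSG00000032085), the actin-binding transgelin, in 60, and Myh11 (ENSMUSG00000018830), the smooth muscle myosin heavy chain, in 52. Notch3 (ENSMUSG00000038146) had a UMI in 47, and Mcam (ENSMUSG00000032135), the adhesion molecule CD146, in 41. Of these last 3 genes (Myh11, Notch3 and Mcam), 30 cells held all, 19 held 2 and 12 held 1. Only 4 cells met that condition through a single UMI.

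Few barcodes lay near the threshold of 30 u. The mural cells with the lowest contractile sum stood at 37.5 u in NHD13Tg, 47.2 u in WT_A1, 34.0 u in Abcg2-MDS/AML and 31.4 u in Control, while the highest barcodes below it that met the other conditions stood at 26.2, 25.4, 29.9 and 27.0 u in the same libraries. Between 20 and 30 u there were 2, 1, 4 and 4 such barcodes.

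A further 47 barcodes reached 30 u of contractile genes without a UMI of Myh11, Notch3 or Mcam and so stayed outside, 16 of them in NHD13Tg, 12 in WT_A1, 16 in Abcg2-MDS/AML and 3 in Control. The mural cells had a median of 4272 UMIs and the barcodes outside one of 7912, yet the barcodes outside held fewer mural genes that the rule did not use. Rgs5 had a UMI in 36 of 61 mural cells and in 2 of the 47, and when each barcode was thinned to 2000 UMIs the expected numbers were 31.9 and 1.29 cells. Higd1b, a mitochondrial hypoxia-domain protein known as a pericyte marker, was found in 26 mural cells and in 0 of the 47, and Cnn1, calponin 1, in 15 and 0. Lmod1, the leiomodin that nucleates actin in smooth muscle, was found in 32 mural cells and 1 barcode outside. The desmin gene Des was found in 26 and 2. Other contractile genes were common outside too: Tpm2 in 58 mural cells and 31 barcodes outside, Myl9 in 55 and 27, Csrp1 in 56 and 23, Mylk in 53 and 16. The contractile list of the barcodes outside was at 6263, 8173, 4657 and 7128 CPM in NHD13Tg, WT_A1, Abcg2-MDS/AML and Control. That lay below the mural cells (29313, 32801, 19093 and 12448 CPM) and above all passing barcodes that were not mural (2644, 2400, 1510 and 1227 CPM). Summed over a cartilage marker list the mural cells had a median of 3.21 u (0 to 447 u) and the barcodes outside 96.6 u (0 to 1059 u). Over a fibroblast list the mural cells had 9.67 u (0 to 206 u) and the barcodes outside 61.5 u (2.21 to 287 u).

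The label was checked against genes of smooth muscle and pericytes. The contractile list of 26 genes, which leaves out the genes of the rule, had a median of 14 genes detected per mural cell (5 to 23), and the pericyte list of 20 genes had a median of 6 (0 to 15). Markers of blood cells and the endothelial genes Cdh5 and Pecam1 were at or near 0. Ptprc, the CD45 gene used to sort out blood cells, and Cdh5, the endothelial cadherin, were at 0 UMIs in all 61 cells, and Pecam1, the CD31 gene, was found in 1 cell. Summed over 12 endothelial genes, however, the mural cells were above the others in every library, at 354 against 21.4 CPM in Abcg2-MDS/AML. Summed over the mural cells of a library, the contractile and pericyte lists were above the other barcodes, but single cells did not all follow. The rules used for other cells were also met by 6 of the 61, that for fibroblasts by 5 and that for marrow reticular cells by 1. Beyond these, 1 mural cell of Control, marked as a doublet at the fixed rate, had 447 u of cartilage and 272 u of synovial lining markers against 61.9 u of the contractile list. In WT_A1, 1 cell had 239 u of cartilage and 220 u of synovial lining markers against 53.5 u of the contractile list, and another had 125 u of fibroblast markers against 56.6 u of the contractile list and no pericyte gene. In Abcg2-MDS/AML, 1 marked cell had 107 u of fibroblast markers against 96.2 u of the contractile list. Another marked cell there had 93.7 u of fibroblast and 74 u of cartilage markers against 39.5 u of the contractile list. In NHD13Tg, the cells with contractile sums of 49.1 and 61.7 u each met the second condition through 1 Notch3 UMI. They had 70.7 and 47.5 u of fibroblast and 28.5 and 43.7 u of osteolineage markers, against 94.7 and 67.4 u of the contractile list.

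Of the 2 genes whose proteins were sorted for, Pdgfra was detected in 8 and Itgav in 19 of the 61 mural cells. Pdgfra (ENSMUSG00000029231) had 356 CPM in the mural cells of NHD13Tg against 254 CPM in the others, 59.8 against 279 CPM in WT_A1, 62.1 against 235 CPM in Abcg2-MDS/AML, and 21.4 CPM (1 UMI) against 63.3 CPM in Control. CPM here means the UMIs of a gene scaled to a total of 1000000 UMIs summed over the cells of a group in 1 library. The NHD13Tg value rested on 1 cell, which gave 93% of the Pdgfra UMIs there and had 137 u of marrow reticular genes. In Abcg2-MDS/AML 1 cell had 8 Pdgfra UMIs and no other cell had more than 1. That cell was marked as a doublet at the fixed rate, met the fibroblast rule and had 206 u of fibroblast markers. The 1 UMI of Control lay in a marked cell with 447 u of cartilage markers. Across libraries Pdgfra had a UMI in 8 of 61 mural cells, and at 2000 UMIs the expected share was 6.43% in mural cells, 47.9% in 4309 fibroblasts and 44.3% in 3215 marrow reticular cells. Itgav had 94.9, 19.9, 155 and 171 CPM in the mural cells of NHD13Tg, WT_A1, Abcg2-MDS/AML and Control, against 82.6, 74.5, 41.9 and 38.2 CPM in the others. It had a UMI in 19 of 61 mural cells, and at 2000 UMIs in an expected 16.4% of mural cells, 11.4% of fibroblasts and 19.6% of marrow reticular cells. Surface protein was not measured in these counts, so whether the mural cells carried CD140a was not tested.

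Pdgfrb, the receptor for PDGF-B, was shared with marrow reticular cells. It had a UMI in 44 of 61, and at 2000 UMIs in an expected 48.4% of mural cells, 15.5% of fibroblasts and 44.6% of marrow reticular cells. Notch3 was expected in 51.1% of mural cells, 0.716% of fibroblasts and 16.4% of marrow reticular cells. It is a gene of the rule, so its share in mural cells was partly set by the choice of cells. Mylk, which the rule did not use, was expected in 68.4, 2.04 and 33.3% of the same cells. Rgs5 separated the mural cells from both, at 52.3% of mural cells, 0.399% of fibroblasts and 1.59% of marrow reticular cells. The median depth was 4272 UMIs in mural cells, 5169 in fibroblasts and 4234 in marrow reticular cells before thinning.

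In Abcg2-MDS/AML, 279 of 6144 genes with at least 20 CPM in either group were at least 4-fold higher in the mural cells than in the other passing barcodes (4.54%), and 201 were at least 4-fold lower (3.27%). The fold was taken after adding 10 CPM to both groups, which understates the change of low genes, and 4-fold is a limit of size, not a test. The median gene stood at 0.39 on the log2 scale, so list medians are read against that value. Since a gene that is low in the others could enter only by being high in mural cells, counts over lists describe the genes that passed 20 CPM and support nothing further.

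The contractile apparatus gave the broadest difference. All 26 genes of the list passed the filter, 24 were at least 4-fold higher in the Abcg2-MDS/AML mural cells, none was lower, and the median log2 fold was 3.15. The list medians were 3.18 against fibroblasts and 2.86 against marrow reticular cells, comparisons in which 4.09% and 3.29% of genes were higher and 3.43% and 3.13% lower. The 2 genes short of 4-fold were Smtn, encoding smoothelin, at a log2 fold of 1.96, and Synm, encoding the intermediate filament protein synemin, at 1.30. Summed over the list the mural cells had 29313 CPM in NHD13Tg, 32801 in WT_A1, 19093 in Abcg2-MDS/AML and 12448 in Control, against 2644, 2400, 1510 and 1227 CPM in the other cells. Free RNA, read from barcodes with 1 to 100 UMIs, had 2662, 2858, 1657 and 1321 CPM of the list.

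Myl9, the regulatory light chain of smooth muscle myosin, had 4245 CPM in the mural cells of NHD13Tg against 35.5 CPM in the others, 4045 against 15.5 CPM in WT_A1, 1634 against 34.9 CPM in Abcg2-MDS/AML (log2 fold 5.19) and 770 against 10.04 CPM in Control. Mylk, the kinase that phosphorylates that light chain, had 759 against 86.0 CPM in NHD13Tg, 1315 against 43.2 CPM in WT_A1, 839 against 32.6 CPM in Abcg2-MDS/AML (log2 fold 4.32) and 492 against 26.8 CPM in Control. Both were therefore higher in the mural cells of every library. Ppp1r14a, the inhibitor of the phosphatase that reverses the phosphorylation, had 391 against 6.86 CPM in Abcg2-MDS/AML (log2 fold 4.57).

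On the thin filament, Tpm2, a beta tropomyosin, had 6190 against 73.4 CPM in NHD13Tg, 7254 against 78.1 CPM in WT_A1, 2131 against 37.2 CPM in Abcg2-MDS/AML (log2 fold 5.50) and 1476 against 42.2 CPM in Control. Lmod1 had 427 against 2.88 CPM, 359 against 0.885 CPM, 304 against 0.784 CPM (log2 fold 4.87) and 107 against 0.673 CPM in the same order of libraries. Calponin 1 was uneven. Cnn1 had 261 CPM in the mural cells of NHD13Tg against 0 in the others, 359 against 0.118 CPM in WT_A1, 80.8 against 0.425 CPM in Abcg2-MDS/AML (13 UMIs in 6 cells) and 0 against 0.207 CPM in Control, where 0 UMIs in the 46754 of the 9 mural cells allows up to 64.2 CPM.

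The genes that anchor and scaffold filaments were higher as well. Csrp1, a LIM protein of smooth muscle, had 949, 1315, 1025 and 364 CPM in the mural cells of NHD13Tg, WT_A1, Abcg2-MDS/AML and Control, against 36.7, 39.5, 44.6 and 38.7 CPM in the others. Des, the muscle intermediate filament, had 190, 259, 249 and 42.8 CPM against 11.3, 10.2, 4.28 and 2.04 CPM. Pdlim3, which links alpha-actinin to actin, had a log2 fold of 4.11 in Abcg2-MDS/AML, and Filip1l, a filamin-interacting protein, of 5.28.

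**Figure D1:**
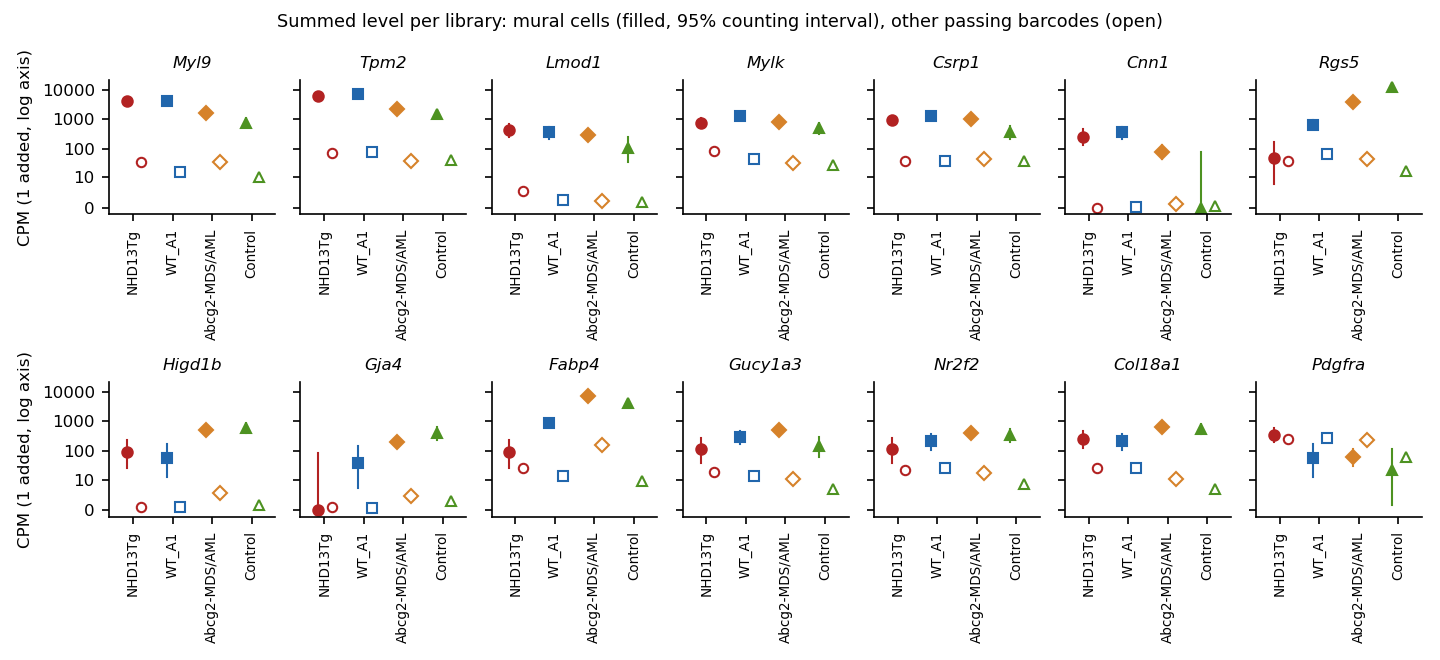
Level of 14 genes in the mural cells (filled points, with 95% counting intervals) and in all other passing barcodes (open points) of each of the 4 libraries, in CPM on a log axis. Contractile genes such as Myl9 and Tpm2 were high in the mural cells of all 4 libraries, Rgs5 was at 47.4 CPM in NHD13Tg and 12063 CPM in Control, and Pdgfra was lower in the mural cells of WT_A1 and Abcg2-MDS/AML. In Control the Pdgfra point of the mural cells is 1 UMI, under the 64.2 CPM that 3 UMIs make there.

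Across all 4 libraries, 49 of 6617 genes with a mean of at least 20 CPM in either group had at least 3 UMIs in the mural cells of every library and were at least 4-fold higher in each (0.741%). They held Acta2, Tagln, Myh11, Notch3 and Mcam from the rule, the contractile genes Myl9, Myl6, Mylk, Tpm2, Lmod1, Cald1, Actg2, Ppp1r14a, Ppp1r12b, Csrp1, Flna, Pdlim3 and Sncg, and the nitric oxide receptor subunits Gucy1a3 and Gucy1b3. Csrp2, Filip1, Filip1l, Dmd, Rbpms, Higd1b, Rgs4, Heyl, Nrip2, Nr2f2, Eln, Col18a1, Gjc1, Pde3a, Aoc3 and Atp1b2 were also among the 49. Rgs5 was not, since it had 2 UMIs in the NHD13Tg mural cells.

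Serum response factor with its partner myocardin drives smooth muscle genes through the CArG box, so the bases just upstream of the genes' starts are shown for contractile and shared genes whose 250 upstream bases hold one. The sequences are from RefSeq promoter windows on GRCm38.p6, each printed 5′ to 3′ on the strand of its gene, with the CArG box in capitals. Myl9 lies at chr2:156775288-156775327 on the plus strand and its box is 161 bases upstream of the start, Myl6 at chr10:128493035-128493074 on the minus strand with its box 50 bases upstream, Vcl at chr14:20929156-20929195 on the plus strand with its box 227 bases upstream, and Cnn2 at chr10:79988529-79988568 on the plus strand with its box 56 bases upstream. Dmd lies at chrX:82948757-82948796 on the plus strand, box 98 bases upstream, Filip1 at chr9:79977973-79978012 on the minus strand, box 115 bases upstream, and Filip1l at chr16:57549165-57549204 on the plus strand, box 62 bases upstream.
Myl9: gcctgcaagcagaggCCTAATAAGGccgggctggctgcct
Myl6: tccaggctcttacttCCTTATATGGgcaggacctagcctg
Vcl: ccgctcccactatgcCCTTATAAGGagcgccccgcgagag
Cnn2: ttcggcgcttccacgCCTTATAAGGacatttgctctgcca
Dmd: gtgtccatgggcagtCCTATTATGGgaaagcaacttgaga
Filip1: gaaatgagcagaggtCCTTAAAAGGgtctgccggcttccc
Filip1l: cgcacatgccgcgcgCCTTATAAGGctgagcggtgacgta
Of the contractile list, 24 genes had a window and 4 of them held a CArG box (16.7%), against 439 of 27025 genes with a window (1.62%). Of the 49 genes above, 31 had a window and 5 held the box (16.1%). None of 13 pericyte genes with a window did. The search read both strands, and a match is a run of letters, not a shown binding site.

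The pericyte list was higher too, but not evenly over libraries. Of its 20 genes, 16 passed the filter in Abcg2-MDS/AML, 11 were at least 4-fold higher in mural cells and none was lower, with a median log2 fold of 3.07. Summed over the list the mural cells had 2182 CPM in NHD13Tg, 3607 in WT_A1, 8699 in Abcg2-MDS/AML and 18587 in Control, against 1066, 1017, 733 and 914 CPM in the others. The contractile sums given above were highest in WT_A1 and lowest in Control.

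Rgs5 (ENSMUSG00000026678), the G-protein regulator of pericytes, had 47.4 CPM in the mural cells of NHD13Tg against 37.3 CPM in the others, 658 against 68.2 CPM in WT_A1, 3877 against 43.5 CPM in Abcg2-MDS/AML (log2 fold 6.18) and 12063 against 16.9 CPM in Control. It was found in 1 of 8 mural cells of NHD13Tg, 3 of 9 of WT_A1, 23 of 35 of Abcg2-MDS/AML and 9 of 9 of Control. Higd1b had 94.9, 59.8, 497 and 599 CPM in the mural cells of NHD13Tg, WT_A1, Abcg2-MDS/AML and Control, against 0.346, 0.325, 3.00 and 0.569 CPM in the others. Gja4, the gap junction protein connexin 37, was at 0, 39.9, 205 and 406 CPM in the same mural cells and under 3 CPM in the others of each library. The pericyte genes were thus carried mainly by the mural cells of Abcg2-MDS/AML and Control.

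Other members of the list differed in how particular they were to the mural cells. Art3 (log2 fold 3.598), the potassium channel subunits Abcc9 (3.73) and Kcnj8 (3.12), and Rgs4 (3.87) passed 4-fold in the Abcg2-MDS/AML mural cells. Cspg4, which encodes the pericyte proteoglycan NG2, was at 186 CPM in Abcg2-MDS/AML mural cells against 63.4 CPM in the others, a log2 fold of 1.42, but of 3.24 against fibroblasts. Cygb, encoding cytoglobin, was at a log2 fold of 2.09 against all others and 0.40 against fibroblasts. Steap4, a metalloreductase, reached 1.30, and Anpep, encoding aminopeptidase N, was at -0.36.

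Cell by cell, mural cells with a contractile sum of 300 u or more had Rgs5 at 9.21 u or less. In NHD13Tg the 8 contractile sums were 37.5, 49.1, 61.7, 384, 455, 584, 584 and 723 u, and Rgs5 was at 4.42 u in the first of these cells and at 0 in the other 7. In Control the 9 sums ran from 31.4 to 232 u, and Rgs5 lay between 15.4 and 292 u in every cell. In WT_A1 the 9 sums ran from 47.2 to 684 u, with Rgs5 at 41.2, 15.6 and 7.19 u in 3 cells and at 0 in 6. The 35 cells of Abcg2-MDS/AML spanned 34.0 to 635 u, with Rgs5 up to 214 u. Spearman's rho between Rgs5 and the contractile sum over the cells of a library was -0.58 in NHD13Tg (8 cells), -0.15 in WT_A1 (9), -0.16 in Abcg2-MDS/AML (35) and -0.07 in Control (9), cells that share library and total depth. The contractile sum is the value the rule used, cut off at 30 u. Between the pericyte list and the contractile list, which leaves out the genes of the rule, rho was 0.71, 0.32, 0.12 and 0.20 in the same libraries. These rhos describe the cells and do not show a split.

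**Figure D2:**
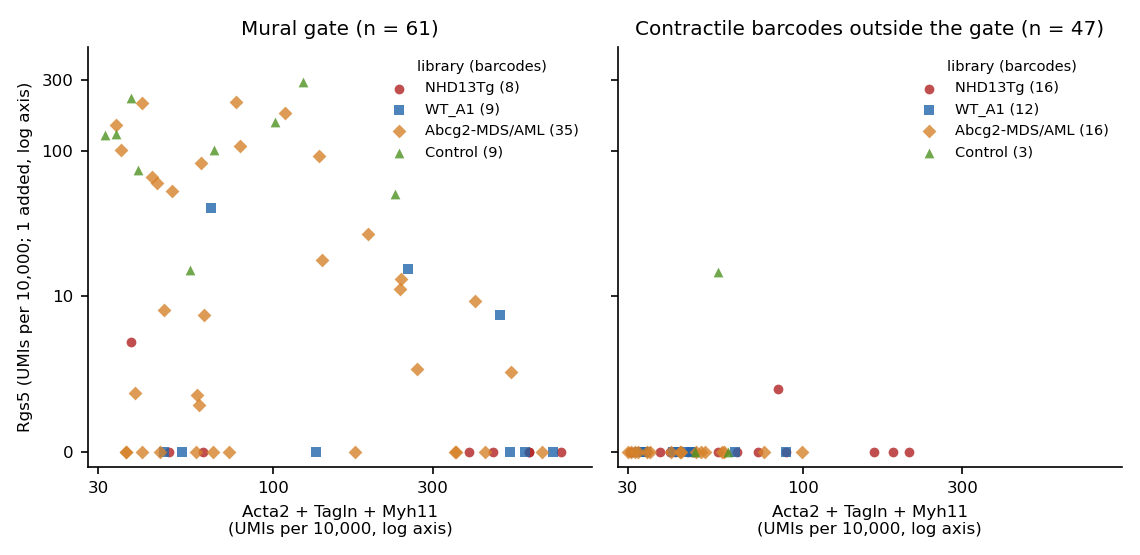
Each point is 1 cell: sum of Acta2, Tagln and Myh11 (x axis, u, log scale) against Rgs5 plus 1 (y axis, u, log scale), for the 61 mural cells (left) and the 47 contractile barcodes outside the rule (right), by library. Among the mural cells, none with a contractile sum of 300 u or more had Rgs5 above 9.21 u, and none with Rgs5 of 10 u or more had a contractile sum above 253 u.

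From that plot, after the values were seen, 3 sets were read off for description. A contractile set of 300 u or more had 15 cells, 5 in NHD13Tg, 4 in WT_A1, 6 in Abcg2-MDS/AML and 0 in Control, with Cnn1 in 13 of them. An Rgs5 set of 10 u or more had 26 cells, 0 in NHD13Tg, 2 in WT_A1, 15 in Abcg2-MDS/AML and 9 in Control, with Cnn1 in 1. A set with Rgs5 under 10 u and contractile genes under 100 u had 17 cells, 3 in NHD13Tg, 2 in WT_A1, 12 in Abcg2-MDS/AML and 0 in Control, and the last 3 cells fell in none of these sets. The set of 17 is called the set with little of either, which refers only to Rgs5 and the sum of Acta2, Tagln and Myh11. Control and NHD13Tg each held only 1 of the first pair of sets, so set and library cannot be told apart across libraries, and the sets were compared inside Abcg2-MDS/AML.

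Inside Abcg2-MDS/AML, the Rgs5 set held several pericyte genes beyond Rgs5, named here after their values were seen. Higd1b had 67 UMIs (971 CPM) in its 15 cells and 0 in the 6 cells of the contractile set. Art3 had 23 UMIs (333 CPM) against 0, Abcc9 25 UMIs (362 CPM) against 0, and Cygb 64 UMIs (928 CPM) against 0. Genes outside the pericyte list stood beside them. The thrombin receptor F2r, of the vasoactive list, had 25 UMIs (362 CPM) against 0, Dcn 134 UMIs against 8, Col6a1 66 against 0, Marcks 33 against 0 and Ctsk 18 against 0. The contractile set held 20702 UMIs in Abcg2-MDS/AML, so 0 UMIs there allows up to 144.9 CPM. The basement membrane list was at 14841 CPM in the Rgs5 set, 4589 CPM in the contractile set and 8266 CPM in the set with little of either, whereas the Notch pathway list was at 725, 966 and 860 CPM with counting intervals that overlapped. The type IV collagen chain Col4a1 was at 3391 CPM in the Rgs5 set, 1063 CPM in the contractile set and 2134 CPM in the set with little of either.

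Genes that the rule did not use were also higher in the contractile set, some of them named here after their values were seen. In Abcg2-MDS/AML, Tpm2 had 132 UMIs (6376 CPM) in the contractile set and 139 UMIs (2014 CPM) in the Rgs5 set. Myl9 had 110 UMIs (5313 CPM) against 115 UMIs (1667 CPM). Cnn1 had 12 UMIs (580 CPM) in the contractile set and 1 UMI (14.5 CPM) in the Rgs5 set of Abcg2-MDS/AML. Pln, phospholamban, which brakes the calcium pump of the sarcoplasmic reticulum, had 7 UMIs (338 CPM) against 3 UMIs (43.5 CPM). Ckb, brain-type creatine kinase, had 12 UMIs (580 CPM) against 6 UMIs (87.0 CPM), and Mustn1, a small nuclear protein of musculoskeletal tissue, 92 UMIs (4444 CPM) against 105 UMIs (1522 CPM). The contrasts of Cnn1, Pln and Ckb rest on few molecules, and all of them rest on the 6 cells of the contractile set. Genes not known as contractile stood beside them: over all libraries Ndufa4, a respiratory chain subunit, had 43 UMIs in the contractile set and 8 in the Rgs5 set, and Timp4, a metalloproteinase inhibitor, 72 and 22.

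As a sum, the set with little of either held more of the fibroblast and marrow reticular lists than the Rgs5 and contractile sets. A few cells carried most of both lists. The 12 Abcg2-MDS/AML cells of the set had 10893 CPM of the contractile list and 2262 CPM of the pericyte list, against 18507 and 16826 CPM in the Rgs5 set and 41397 and 2753 CPM in the contractile set. Both lists were still above the 1510 and 733 CPM of the other passing barcodes of that library. In NHD13Tg and WT_A1 the pericyte list of the set, at 755 CPM (18 UMIs) and 729 CPM (8 UMIs), was not above the other barcodes (1066 and 1017 CPM). In Abcg2-MDS/AML the fibroblast marker list of the set was at 6004 CPM, against 1348 CPM in the Rgs5 set and 2319 CPM in the contractile set, and the marrow reticular list at 2054 CPM, against 696 and 580 CPM. The 4 mural cells of this library marked as doublets were all in this set, at 170, 107, 206 and 93.7 u of the fibroblast list. Its other cells had 8.12 u or less. The marrow reticular list reached 67.8 and 46.4 u in single cells, the second of them marked. The fibrillar and stromal matrix list overlapped with the Rgs5 set in its counting interval, at 9237 CPM (8501 to 10020) and 9174 CPM (8473 to 9917), and was at 1980 CPM in the contractile set. Of the 17 such cells in all libraries, 3 also met the fibroblast or marrow reticular rule. Whether RNA of other stromal cells in these droplets gave those values was not tested.

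**Figure D3:**
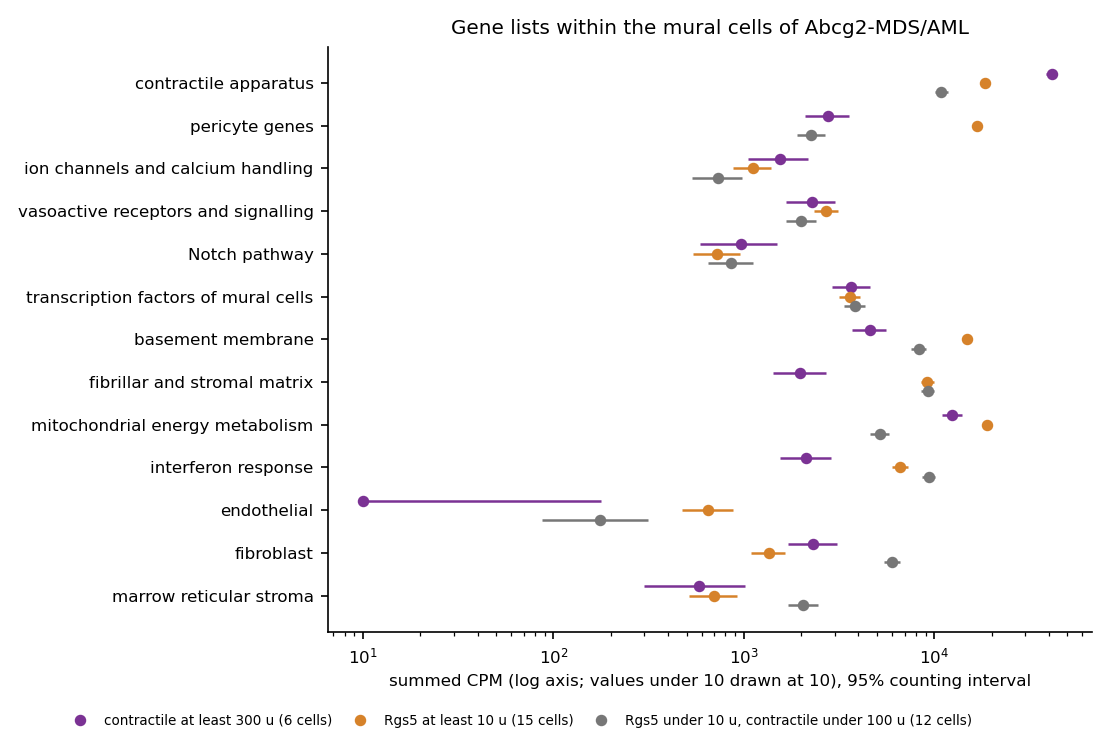
Summed level of 13 gene lists (CPM, log axis, 95% counting intervals) in 3 sets of Abcg2-MDS/AML mural cells: the contractile set of 6 cells, the Rgs5 set of 15 cells and the set with little of either of 12 cells. The pericyte list was at 2753, 16826 and 2262 CPM in these sets and the contractile list at 41397, 18507 and 10893 CPM.

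Genes whose level per cell followed Myh11, a gene of the rule, and Rgs5 most closely within the 35 Abcg2-MDS/AML mural cells were read among 3077 genes with a UMI in at least 20% of the cells. Each list describes 1 gene and does not set the lists against each other. For Myh11 these were Mustn1 (Spearman's rho 0.77), Sparcl1 (0.69), Dstn (0.69), Rock1 (0.69), Csrp2 (0.66), Lmod1 (0.66), Filip1l (0.64) and Capn2 (0.63). For Rgs5 they were Cygb (0.72), Higd1b (0.70), Ndufa4l2 (0.65), Esam (0.62), Aldoa (0.59), Adap2 (0.57) and Gjc1 (0.57). Capn2 had 18 UMIs and Adap2 12 UMIs in those cells, and all of these values share the cells' depth.

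Of the Notch pathway list, 11 of 16 genes passed the filter and 4 were higher by 4-fold or more in mural cells of Abcg2-MDS/AML, with none lower and a median log2 fold of 1.52. Jag1, the ligand that smooth muscle cells present to their neighbours, had 119, 79.7, 199 and 406 CPM in the mural cells of NHD13Tg, WT_A1, Abcg2-MDS/AML and Control, against 29.2, 30.3, 13.4 and 9.03 CPM in the others. Heyl, a target gene of NOTCH3, had 71.1, 99.6, 87.0 and 192 CPM against 6.34, 5.43, 6.499 and 2.51 CPM. Hey2, a target gene known from arteries, had 13 UMIs (80.8 CPM) in Abcg2-MDS/AML and 1 UMI in each other library. Nrip2, a nuclear receptor cofactor, was the other gene called, at a log2 fold of 2.64. The list holds no gene of the rule. The pathway did not set the mural cells off from marrow reticular cells as it did from fibroblasts: the list median was 1.52 against fibroblasts and -0.01 against marrow reticular cells, and Heyl stood at log2 folds of 3.00 and 0.06.

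RBPJ, the DNA-binding partner of the cleaved Notch receptor, is known to bind the letters GTGGGAA. They were searched on both strands in the 250 bases upstream of the starts of the list's genes and of Notch3, a gene of the rule. Of these genes, 13 had a window and 2 held the letters, Hey2 and Lfng, against 1669 of 27025 genes (6.18%). The site of Hey2, a gene called here, lies at chr10:30842969-30843005 on the minus strand, 207 bases upstream of the start, and reads in the opposite direction on the gene's strand, with the letters in capitals.
Hey2: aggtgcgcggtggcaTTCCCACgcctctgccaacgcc
Lfng, a Notch-modifying sugar transferase, did not pass the filter on level.

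Transcription factors known from mural cells gave 6 genes higher and 1 lower among 19 that passed, with a median log2 fold of 1.15. The median was 0.63 against fibroblasts and 0.56 against marrow reticular cells, where all genes stood at 0.26 and 0.06. Nr2f2 (COUP-TFII), a factor known from veins, had 119 against 21.4 CPM in NHD13Tg, 219 against 25.8 CPM in WT_A1, 404 against 16.9 CPM in Abcg2-MDS/AML (log2 fold 3.94) and 342 against 7.06 CPM in Control. Foxs1 (3.05), Tbx2 (2.91), Tbx3 (2.05), Tcf15 (2.60) and the hypoxia factor Epas1 (2.65) were the other 5 in Abcg2-MDS/AML. Epas1 was at a log2 fold of -0.40 against marrow reticular cells. Foxc1, a factor of marrow reticular cells, was lower at -2.23. Myocd, myocardin itself, was too sparse to read, with 3 UMIs in the Abcg2-MDS/AML mural cells, and Srf had 5.

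Receptors and enzymes of vessel tone were a further group that was higher. Of 29 genes 19 passed, 10 were at least 4-fold higher, none was lower, and the median log2 fold was 2.17 (2.37 against fibroblasts and 2.09 against marrow reticular cells). Gucy1a3, the alpha subunit of soluble guanylate cyclase, the receptor for nitric oxide, had 119 against 19.0 CPM in NHD13Tg, 299 against 13.5 CPM in WT_A1, 503 against 10.6 CPM in Abcg2-MDS/AML (log2 fold 4.64) and 150 against 4.14 CPM in Control. Its partner subunit Gucy1b3 was at 71.1, 79.7, 211 and 235 CPM in the mural cells of those libraries and under 4 CPM in the others of each. Both subunits of that receptor were detected in the mural cells of all 4 libraries, which their place among the 49 shared genes required. In NHD13Tg, Gucy1b3 stood at the 71.1 CPM that 3 UMIs make there.

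Ednra and Ednrb encode the endothelin receptors. Ednra, the receptor through which endothelin-1 constricts smooth muscle, had 0, 19.9, 155 and 150 CPM in the mural cells of NHD13Tg, WT_A1, Abcg2-MDS/AML and Control. Ednrb had 34 UMIs (211 CPM, log2 fold 4.26) in Abcg2-MDS/AML, where 1 cell gave 53% of them, 1 UMI in WT_A1 and 0 in NHD13Tg and Control. Pde3a, a cyclic nucleotide phosphodiesterase (log2 fold 2.33), and Aoc3, the vascular amine oxidase (2.95), were among the 49 genes shared by the libraries. Ramp1, a subunit of the receptor for the vasodilator CGRP, reached 2.84, and P2rx1, an ATP-gated channel of smooth muscle, 2.24 on 6 UMIs. The angiotensin receptor gene Agtr1a had 6 UMIs (37.3 CPM) in Abcg2-MDS/AML, a log2 fold of 1.94.

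Ion channels and calcium handling gave 5 of 14 higher and 1 lower, with a median log2 fold of 1.37. Trpc6, a receptor-operated cation channel, had 112 CPM in Abcg2-MDS/AML mural cells against 1.27 CPM in the others. Kcnmb1, the smooth muscle beta subunit of the large-conductance potassium channel, had 6 UMIs (37.3 CPM) against 0.0980 CPM, whereas Kcnma1, the pore subunit of the same channel, had 0 UMIs in the mural cells and 168 CPM in the others. With the floor of 3 UMIs, which is 18.6 CPM over the 35 cells, Kcnma1 was at least 8.99-fold lower. Ano1, a calcium-activated chloride channel, Atp1b2 and Atp2b4, subunits of ion pumps, were at log2 folds of 2.61, 2.64 and 2.25.

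**Figure D4:**
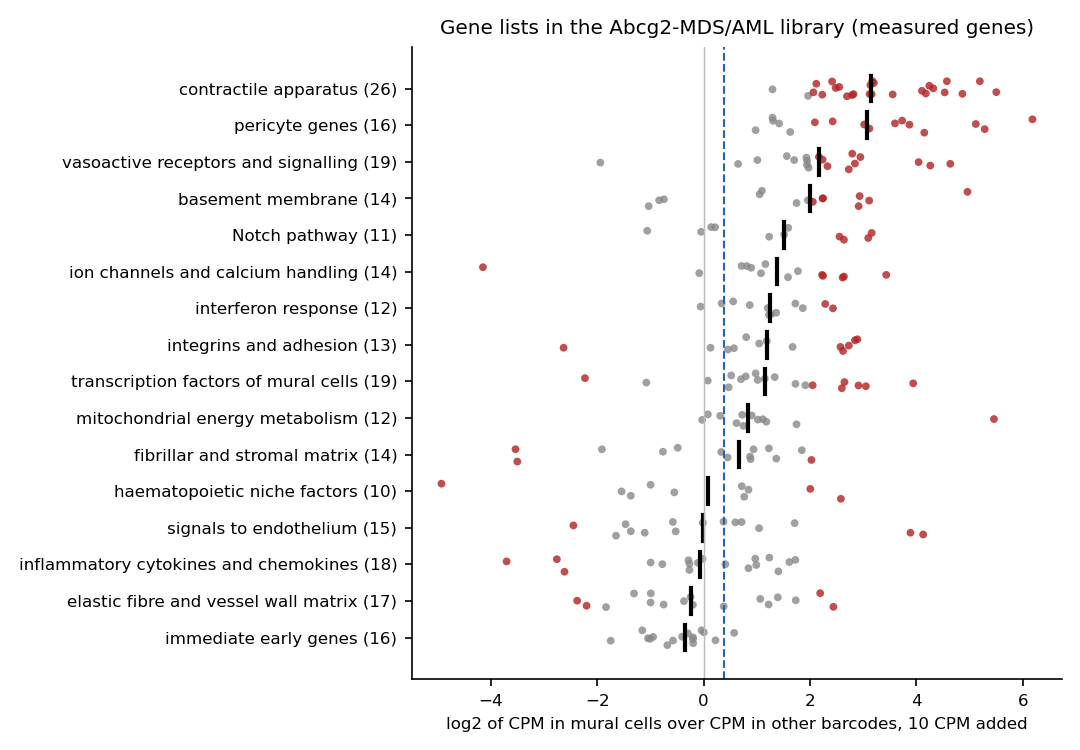
Log2 fold of each gene that passed the filter, by gene list, for the mural cells of Abcg2-MDS/AML over the other passing barcodes. Red points are at least 4-fold, black bars mark list medians and the dashed line the median of all genes at 0.39. The contractile list had a median of 3.15, the pericyte list of 3.07, the vasoactive list of 2.17 and the immediate early genes of -0.35.

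The basement membrane list gave 7 of 14 genes higher, none lower, and a median log2 fold of 2.01. The median was 1.17 against fibroblasts and 0.98 against marrow reticular cells, where all genes stood at 0.26 and 0.06. Summed over the list, the mural cells were not above the others in any library, at 10550 against 11581 CPM in Abcg2-MDS/AML. Col4a1 had 949 against 274 CPM in NHD13Tg, 757 against 238 CPM in WT_A1, 2504 against 281 CPM in Abcg2-MDS/AML (log2 fold 3.11) and 1647 against 50.2 CPM in Control. Col18a1, whose product releases endostatin, had 261, 219, 640 and 577 CPM against 26.5, 25.8, 10.9 and 4.19 CPM in the same libraries. Col4a2 (2.93), the laminin chains Lama4 (2.25), Lama5 (2.92), Lamb1 (2.24) and Lamc1 (2.05) belonged to the same group. Col4a1 was at a log2 fold of 1.26 against fibroblasts and 2.34 against marrow reticular cells. Hspg2, perlecan, was at -0.75 and Sparc at -1.03. Tinagl1, a secreted basement membrane protein, had 474, 538, 298 and 406 CPM in the mural cells of NHD13Tg, WT_A1, Abcg2-MDS/AML and Control, against 1.21, 1.06, 2.12 and 4.48 CPM in the others, and the laminin receptor Bcam had 403, 359, 267 and 128 CPM against 1.70, 1.48, 1.60 and 3.105 CPM.

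Of integrins and adhesion genes 13 passed, 5 were higher and 1 was lower. The higher ones were Itga1 (log2 fold 2.89), Itga7 (2.57), Itga8 (2.73), Itgb1 (2.62) and the dystrophin gene Dmd (2.85), and the lower one was Ncam1 (-2.63). Itgb1, the beta 1 chain, had 1138, 797, 1522 and 1069 CPM in the mural cells of NHD13Tg, WT_A1, Abcg2-MDS/AML and Control, against 465, 441, 239 and 230 CPM in the others.

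Interstitial matrix did not follow. The fibrillar and stromal list had 1 of 14 genes higher and 2 lower, with a median of 0.66, and the higher one was Postn, periostin (2.03), and the lower ones Dcn, decorin (-3.54), and Lum, lumican (-3.50). The elastic fibre list had 2 of 17 higher and 2 lower, with a median of -0.24, and its genes called were Eln (2.44), Fbn1 (2.19), Fbln2 (-2.20) and Tnxb (-2.38). Eln, encoding elastin, the main protein of the artery's elastic layers, had 119 against 8.12 CPM in NHD13Tg, 219 against 11.6 CPM in WT_A1, 74.6 against 5.58 CPM in Abcg2-MDS/AML and 64.2 against 4.29 CPM in Control. Mgp, the matrix Gla protein known from vascular smooth muscle and cartilage, had 17988 CPM in the mural cells of Abcg2-MDS/AML, 35812 CPM in the others and 38139 CPM in free RNA. In Control it had 22779 CPM in the mural cells, 11794 CPM in the others and 19601 CPM in free RNA. Within Abcg2-MDS/AML the Mgp level was 773 CPM (16 UMIs) in the contractile set of cells described above, 17304 CPM in the Rgs5 set and 25784 CPM in the set with little of either. The part of free RNA in these levels was not tested.

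Lipid-binding proteins were among the largest differences. Fabp4, the fatty acid binding protein of capillary endothelium and fat cells, had 94.9 against 25.3 CPM in NHD13Tg, 877 against 13.2 CPM in WT_A1, 7357 against 157 CPM in Abcg2-MDS/AML (log2 fold 5.46) and 4235 against 8.54 CPM in Control. In Abcg2-MDS/AML it was found in 23 of 35 mural cells, 1 cell gave 33% of the UMIs, and free RNA had 427 CPM. It was at 14014 CPM in the Rgs5 set, 5941 CPM in the contractile set and 1433 CPM in the set with little of either. Fabp5 had 628 against 20.7 CPM in Abcg2-MDS/AML (log2 fold 4.38) and 3 UMIs each in NHD13Tg and WT_A1. Energy metabolism as a list gave Fabp4 as its only gene of 12 at least 4-fold higher, with a median of 0.83.

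Endothelial markers were looked for beside these results. Of 12 endothelial genes 5 passed and 3 were higher in Abcg2-MDS/AML: Flt1 with 8 UMIs in 3 cells, Emcn with 13 UMIs in 4 cells, 69% of them in 1 cell, and Esam, an adhesion molecule, with 27 UMIs in 13 cells. Pecam1 and Cdh5, which define endothelium, were at 0 UMIs there. The summed list was at 94.9, 139, 354 and 321 CPM in the mural cells of NHD13Tg, WT_A1, Abcg2-MDS/AML and Control, against 43.9, 47.1, 21.4 and 39.3 CPM in the others, and within Abcg2-MDS/AML at 652 CPM in the Rgs5 set, 0 in the contractile set and 175 CPM in the set with little of either. The part of endothelial RNA in the Fabp4 level was not tested.

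Some signals from mural cells to endothelium and blood cells were called, where over all genes considered 4.54% were higher and 3.27% lower. The list medians were -0.01 for signals to endothelium and 0.08 for niche factors, against 0.39 for all genes. Of 15 genes of the first list that passed, Angpt2, the angiopoietin that destabilises vessels (255 against 7.87 CPM in Abcg2-MDS/AML, log2 fold 3.89), and Pdgfa (603 against 25.05 CPM, log2 fold 4.13) were higher and Sema3d was lower. Of 10 niche factors, Kitl, stem cell factor, was at 267 against 59.0 CPM (log2 fold 2.01) and Il34 at 149 against 16.6 CPM (2.58), and Spp1 was lower. Kitl went the other way in NHD13Tg, at 94.9 against 464 CPM, and in WT_A1, at 79.7 against 167 CPM, and was at 342 against 95.4 CPM in Control. Against marrow reticular cells, the main known source of this factor, Kitl was at a log2 fold of -1.32 in Abcg2-MDS/AML. Cxcl12, the chemokine that retains blood stem cells, was at 118 against 321 CPM in Abcg2-MDS/AML, and 1 cell gave 86% of the 1020 CPM in the NHD13Tg mural cells.

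For response programs, the counts of called genes stand beside 4.54% higher and 3.27% lower over all genes considered. Of 18 inflammatory genes none was 4-fold higher and Ccl11, Saa3 and Lcn2 were lower, with a median of -0.06, and of 16 immediate early genes none was called in either direction, with a median of -0.35. The interferon list had 2 of 12 higher, Isg15 (2.29) and Ifitm3, and a median of 1.25 against all others and of -0.65 against marrow reticular cells. Ifitm3, a membrane protein induced by interferon, was at 2777 against 507 CPM in Abcg2-MDS/AML (log2 fold 2.43), at 1044 against 1606 CPM in NHD13Tg, at 1036 against 1222 CPM in WT_A1 and at 1775 against 262 CPM in Control. Only 1 proliferation gene passed the filter.

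**Figure D5:**
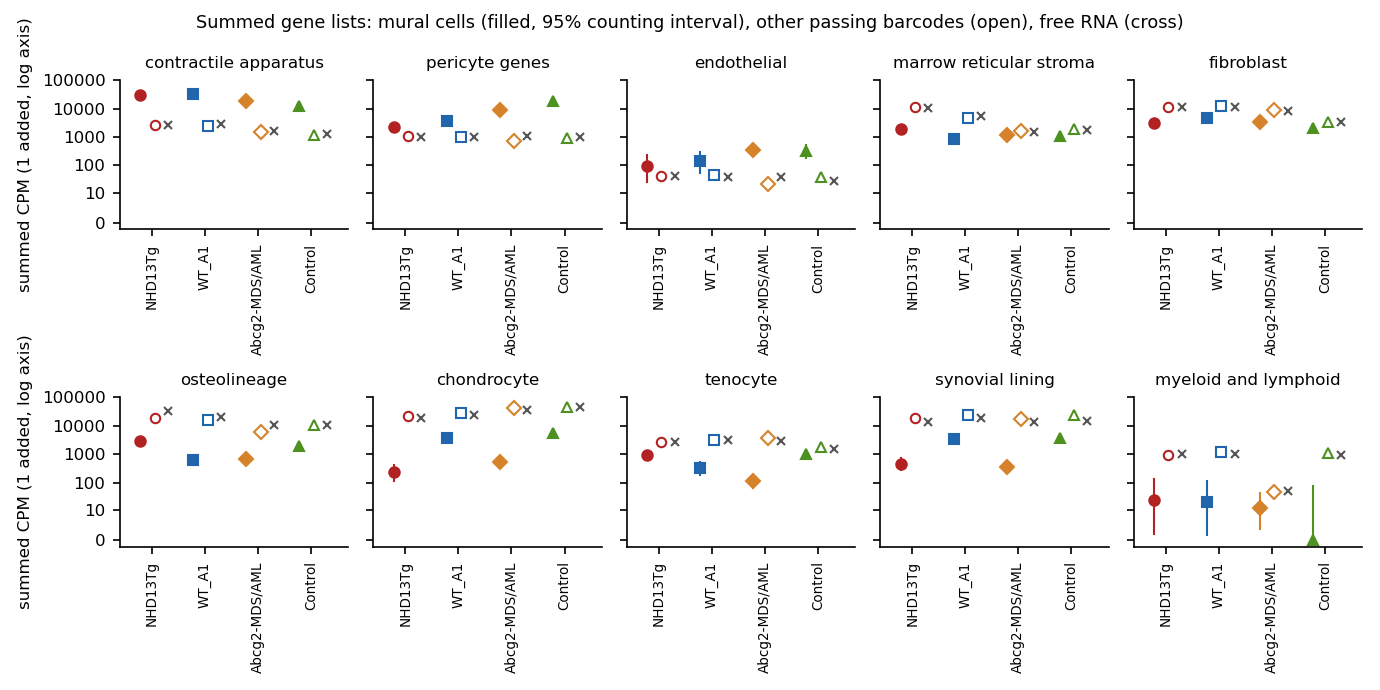
Summed level of 10 gene lists in the mural cells (filled points), in all other passing barcodes (open points) and in free RNA (crosses) of each library, in CPM on a log axis. The contractile list stood at 29313, 32801, 19093 and 12448 CPM in the mural cells of NHD13Tg, WT_A1, Abcg2-MDS/AML and Control, and the pericyte list at 2182, 3607, 8699 and 18587 CPM.

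Genes of cartilage, tendon and joint surface made up the lower side. All 10 chondrocyte genes and all 4 tenocyte genes that passed were at least 4-fold lower in the Abcg2-MDS/AML mural cells, with a median of -5.26 for the first list. Of 8 osteolineage genes 5 were lower, among them Spp1 (93.2 against 3135 CPM) and Ibsp (106 against 2090 CPM), both bone matrix proteins. The 12 lowest by the naming rule were Col2a1, Chad, Cytl1, Prg4, Ucma, Col9a2, Angptl7, Serpina1a, Col9a3, Omd, Col11a1 and Lect1, most of them cartilage genes. Col2a1, type II collagen of cartilage, was at 6.21 CPM in the mural cells and 2972 CPM in the others of Abcg2-MDS/AML, and Prg4, the lubricin of joint surfaces, at 137 and 16985 CPM. Ucma and Col9a2 had 0 UMIs in the 35 cells, which makes them at least 50.4-fold and 38.5-fold lower at the floor. These folds say what the other barcodes held: against fibroblasts alone Col2a1 was at -1.18. In WT_A1 and Control 1 mural cell gave 89% and 90% of the chondrocyte list, which stood at 3607 and 5647 CPM there, against 27496 and 45866 CPM in the others.

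Markers of skeletal muscle, the other contractile tissue beside bone, had 0 UMIs in the mural cells of all 4 libraries. Genes of blood cells were near 0: the myeloid and lymphoid list was at 23.7, 19.9, 12.4 and 0 CPM in the mural cells of NHD13Tg, WT_A1, Abcg2-MDS/AML and Control, against 971, 1173, 48.1 and 1141 CPM in the others. The remaining genes named by the rule were Sncg, a synuclein of smooth muscle and neurons (317 against 4.11 CPM in Abcg2-MDS/AML), the phosphatase Ptp4a3 (509 against 15.3 CPM), the glutathione transferase Mgst3 (410 against 10.9 CPM) and the class I-like gene H2-M9 (211 against 1.05 CPM). H2-M9 was found in 6 of 35 cells of Abcg2-MDS/AML and 2 of 9 of Control. Reads of H2-M9 may be shared with near-identical class I copies, which makes its level uncertain.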

How the data were processed

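Single-cell RNA of 4 libraries (NHD13Tg, WT_A1, Abcg2-MDS/AML and Control) was measured by Chromium Next GEM 3' v3.1 and NextSeq 500 sequencing, per the labels' protocols. The deposited files hold raw UMI counts per gene and barcode, unfiltered, for 27998 genes. Cell Ranger 3.1.0 and Seurat 3.2.3 are named in the submitters' processing notes, and the genome build of the counts is not given in the sources used here, nor is the annotation. Sequences come from RefSeq windows on GRCm38.p6 and were joined by symbol only.

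From the counts, passing barcodes, mural cells, fibroblasts and marrow reticular cells were taken by fixed rules in u (UMIs per 10000), with the last 2 needing 10 u of their own genes. The rule, the gene lists and the tests were chosen with earlier results of these data known, and the sets by Rgs5 and contractile level after their values were seen. UMI counts were summed per library and group and given as CPM, with exact Poisson intervals at 95%, which cover counting error only. Folds added 10 CPM, and a gene was considered with at least 20 CPM in either group. A gene counted as higher or lower at 4-fold in every library with at least 10 mural cells. Only Abcg2-MDS/AML met that number, so the call rests on it. There was 1 library per group and the rule used the same counts, so no test was run. A step run on simulated counts of Abcg2-MDS/AML (5173 genes considered, 100 changed 8-fold each way) recovered 100 of the higher and 82 of the lower genes with 8 false calls.

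Named genes were the 25 with the largest fold among those higher and the 12 lowest (leaving out the genes of the rule, unnamed, mitochondrial, sex-linked and immunoglobulin genes), the genes of the rule and the sort, the called and most abundant members of 28 gene lists, and the 8 genes nearest to Myh11 and to Rgs5, of which 1 is not reported here. Thinning gives the expected number of cells with a UMI when 2000 are drawn per barcode. Alternatives changed the UMI minimum, mitochondrial limit, contractile threshold, condition on Myh11, Notch3 and Mcam, limit on Clic5 and F13a1, doublets, added CPM, filter, comparison cells, pooling, free RNA and each library in turn. The work used Python 3.11.15, numpy 2.4.6, scipy 1.17.1, pandas 2.3.3, scanpy 1.11.5 and matplotlib 3.10.9.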

Additional observations from a re-analysis of the deposited data

How the results depend on the processing

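The mural cells numbered 61, and 35 with at least 4000 UMIs and 38 at 60 u. By the count of genes at least 4-fold higher in members, 279 passed, and 530 with 1 CPM added, 168 with a filter of 100 CPM and 55 as a mean over the 4 libraries when called in each. Genes lower numbered 201, and 306 at 60 u, 378 with 1 CPM added, 107 at 100 CPM, 30 over the 4 libraries and 355 without cells under 10 u of Rgs5 and 100 u of contractile genes. The pericyte list's median moved to 4.15 from 3.07 with 1 CPM added. The pericyte list in the 21 Abcg2-MDS/AML cells under 100 u was at 9883 CPM, and at 12083 CPM without barcodes marked by Scrublet and 9146 CPM when cut at the library's median. Leaving out NHD13Tg, WT_A1 or Control in turn gave 279 higher and 201 lower genes each time, medians of 3.15 and 3.07 and 9883 CPM, since calls rest on Abcg2-MDS/AML; without Abcg2-MDS/AML no library holds 10 mural cells and nothing could be called. Against fibroblasts the log2 fold turned for Serpina1a (0.23), Sema3d (0.27), Spp1 (0.41), Col9a1 (0.0145), Matn3 (0.64) and Sox9 (0.0145), and against marrow reticular cells for Serpina1a (0.12), Lect1 (0.16), Epas1 (-0.40), Kitl (-1.32), Il34 (-0.17), Col9a1 (0.16), Matn3 (0.0142) and the interferon list (-0.65), which was at -0.0124 as a mean over 4 libraries. The cause of these moves was not tested. The 4-library mean, the 2 sets of cells left out and the sums over libraries for levels within the mural cells were chosen after seeing the data. Depth limits the rest: 3 UMIs make 18.6 CPM over the Abcg2-MDS/AML mural cells and 71.1, 59.8 and 64.2 CPM in NHD13Tg, WT_A1 and Control, so genes under those levels could not be read. No paired analysis was possible because each group has 1 library, so no pair of libraries could be set against another.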
